A study of Mus musculus with 20 samples.

Results

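Epiblast-like cells (EpiLCs) made from wildtype mouse embryonic stem cells (ESCs) of the C57Bl6J strain were compared with ESC lines of the same set. The comparison comprised 6 of the 20 RNA-seq libraries of the series, which were chosen by their labels. EpiLC Host denotes the EpiLCs of lines 3 and 4 (wildtype, C57Bl6J, n = 2), and ESC Host denotes the wildtype C57Bl6J ESC lines 1 to 4 (n = 4), which were derived at one time from host embryos. ESC Host 3 and ESC Host 4 were the parent lines of the EpiLC libraries. The labels give none of the 6 an engineered allele or a reporter. The other conversion in the series served as a comparison and was EpiLC DKO (EpiLCs of 3 lines) against PGC-ESC DKO (the 3 parent lines). In these both Puma and Noxa were knocked out, and the lines are labelled PGC-ESC, after primordial germ cells, carry the strain label C57Bl6J and had counts of an EGFP reporter. All ESCs were kept on gelatin in 2i/LIF, that is, N2B27 medium with the GSK3 inhibitor CHIR99021, the MEK inhibitor PD0325901 and leukaemia inhibitory factor (LIF). The sources used here do not give the medium or the length of the EpiLC conversion. Each library is labelled as 1 line, so the p-values rest on a spread between lines, which was estimated over all 20 libraries of the series. The main fit does not pair the EpiLC libraries with their parent lines. Repeat conversions of a line are not part of the data. The labels fit the markers described below: naive genes are high in all 4 ESC lines and low in both EpiLC libraries, and Fgf5 and Pou3f1 are high only in the EpiLC libraries, while Otx2 is low in all 6.

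In 2i/LIF, mouse ESCs are held in the naive state, which resembles the epiblast of the preimplantation blastocyst. There, a network of transcription factors (Esrrb, Tfcp2l1, Klf2, Klf4, Tbx3, Prdm14 and others) works with Pou5f1, Sox2 and Nanog, LIF acts through Stat3, inhibition of GSK3 stabilises beta-catenin, and inhibition of MEK blocks signalling from FGF to ERK. EpiLCs stand for the formative epiblast just after implantation: the naive factors are lost, Fgf5, Pou3f1 and Otx2 are switched on, and the methyltransferases Dnmt3a and Dnmt3b methylate the genome anew, while core pluripotency is retained.

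The promoter windows of 6 genes are shown. As described further on, the genes that fell most in EpiLC Host differed from the rest in CpG content at the start of their transcripts. Fgf5, Dnmt3b and Car4 were higher in EpiLC Host, and Tfcp2l1, Trpm1 and Spic were lower. Each window is a RefSeq sequence of GRCm38.p6, 5′ to 3′ on the gene's strand, from 250 bases before to 50 bases after an annotated start, with each CpG in capitals. The windows hold 29 CpGs for Fgf5 (chr5:98253934-98254233, + strand), 30 for Dnmt3b (chr2:153649199-153649498, + strand) and 15 for Car4 (chr11:84957504-84957803, + strand). There are 21 CpGs for Tfcp2l1 (chr1:118627695-118627994, + strand), 2 for Trpm1 (chr7:64153585-64153884, + strand, 1 of 2 starts listed) and 3 for Spic (chr10:88682974-88683273, - strand).
Fgf5: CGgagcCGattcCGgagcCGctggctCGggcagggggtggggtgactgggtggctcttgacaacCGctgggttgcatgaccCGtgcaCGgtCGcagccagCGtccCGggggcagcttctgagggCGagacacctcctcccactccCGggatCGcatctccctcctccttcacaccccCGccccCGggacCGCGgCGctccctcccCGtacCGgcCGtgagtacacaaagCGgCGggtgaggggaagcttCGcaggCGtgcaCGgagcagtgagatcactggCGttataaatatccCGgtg
Dnmt3b: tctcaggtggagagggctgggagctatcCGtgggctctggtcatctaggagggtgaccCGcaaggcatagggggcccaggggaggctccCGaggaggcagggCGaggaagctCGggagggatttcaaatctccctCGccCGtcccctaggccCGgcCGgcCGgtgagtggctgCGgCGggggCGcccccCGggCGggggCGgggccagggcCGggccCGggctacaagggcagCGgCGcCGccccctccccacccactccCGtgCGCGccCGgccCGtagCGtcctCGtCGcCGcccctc
Car4: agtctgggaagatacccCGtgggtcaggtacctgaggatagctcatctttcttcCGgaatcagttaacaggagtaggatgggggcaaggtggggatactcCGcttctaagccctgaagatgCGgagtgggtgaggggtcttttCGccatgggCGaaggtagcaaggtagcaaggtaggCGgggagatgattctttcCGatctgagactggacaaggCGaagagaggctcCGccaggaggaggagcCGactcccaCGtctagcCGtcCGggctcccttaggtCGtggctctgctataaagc
Tfcp2l1: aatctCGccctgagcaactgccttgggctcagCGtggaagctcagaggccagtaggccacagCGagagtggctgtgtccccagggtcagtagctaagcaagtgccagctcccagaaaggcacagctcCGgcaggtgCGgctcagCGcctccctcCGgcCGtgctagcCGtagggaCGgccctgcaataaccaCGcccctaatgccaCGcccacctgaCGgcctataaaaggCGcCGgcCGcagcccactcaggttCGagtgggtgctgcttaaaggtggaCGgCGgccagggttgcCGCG
Trpm1: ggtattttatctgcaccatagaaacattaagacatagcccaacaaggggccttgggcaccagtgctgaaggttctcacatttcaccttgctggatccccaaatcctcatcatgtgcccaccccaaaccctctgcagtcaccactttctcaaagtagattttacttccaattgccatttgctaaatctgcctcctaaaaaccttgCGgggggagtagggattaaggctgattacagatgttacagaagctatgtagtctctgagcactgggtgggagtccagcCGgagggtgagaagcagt
Spic: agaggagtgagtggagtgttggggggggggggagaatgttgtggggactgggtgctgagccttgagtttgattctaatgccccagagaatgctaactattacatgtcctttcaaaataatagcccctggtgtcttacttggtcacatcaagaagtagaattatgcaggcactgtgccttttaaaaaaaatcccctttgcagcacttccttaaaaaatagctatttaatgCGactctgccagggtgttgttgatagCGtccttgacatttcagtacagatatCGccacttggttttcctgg

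The 6 libraries held between 20106562 and 32344009 counts, with 16905 to 18044 genes detected in each. Levels are given as CPM, a library's counts scaled to a common total, with library sizes adjusted by the trimmed mean of M values (TMM). The first principal component of the 6 libraries carried 75.3% of the variance and separated EpiLC Host from ESC Host, and the second, with 10.2%, spread the ESC Host lines, with ESC Host 4 at the end. The 2 EpiLC libraries lay closer together than the ESC lines did: the median coefficient of variation over genes with a mean of at least 10 CPM was 0.067 in EpiLC Host (9022 genes) and 0.191 in ESC Host (8858 genes). Rn45s, a ribosomal RNA transcript that poly(A) selection should remove, was at 31424 and 25969 CPM in EpiLC Host 3 and 4, against 3726, 4078, 28404 and 61559 CPM in ESC Host 1 to 4, so it was high in 4 libraries and low in ESC Host 1 and 2. Removing it before scaling left 7233 genes called against 7206 with it. That takes out only the counts of this gene, so it cannot show the effect of whatever set ESC Host 1 and 2 apart, which was not tested. Transcripts of the Y chromosome were present in EpiLC Host 4 and ESC Host 4 (Ddx3y at 7.79 and 6.84 CPM) and at 0 in the other 4 libraries, and both libraries with them carry the label of line 4. The mean of 4 Y-linked genes was 4.65 CPM in EpiLC Host 4 and 4.55 CPM in ESC Host 4. In the other libraries of the series with such transcripts it lay between 42.9 CPM (EpiLC DKO 3) and 60.2 CPM (ESC BaxKO 1, a Bax knockout). The cause of the low level was not tested.

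A stretch of chromosome 17 set line 3 apart. Among genes with a mean of at least 10 CPM over the 6 libraries, 48 had their start in the first 18 Mb of the chromosome (GRCm38 positions, RefSeq). All 48 were higher in EpiLC Host 3 than in EpiLC Host 4 by more than 0.5 on the log2(CPM + 1) scale, with a median difference of 1.35 (2.56-fold). By the same margin, 46 of 48 were higher in ESC Host 3 than the median of ESC Host 1, 2 and 4, with a median difference of 1.71 (3.27-fold). In the 125 genes that follow, up to 30 Mb, the medians were 0.02 for the EpiLC and 0.03 for the ESC comparison. Over 314 other bins of 5 Mb in the genome, the median difference between the EpiLC libraries lay between -0.39 and 0.25. For each ESC line against the median of the others, the bins reached from -0.40 to 0.31 in ESC Host 3. They reached from -0.37 to 0.74 in ESC Host 1 and from -0.63 to 0.53 in ESC Host 4. Over the X chromosome (287 genes) the median was 0.33 in ESC Host 1, against -0.09, -0.14 and -0.09 in ESC Host 2, 3 and 4. Tcp1, a chaperonin subunit from the stretch, was at 1507 and 624 CPM in EpiLC Host 3 and 4, against 486, 457, 1761 and 420.1 CPM in ESC Host 1 to 4, so both line 3 libraries were high and the other 4 were low. The cause was not tested. Within each line, EpiLC was set against its own parent. The genes of the stretch had a median log2 change of -0.43 in line 3 and -0.08 in line 4, against -0.13 and -0.09 on the other chromosomes. In the comparison of EpiLC Host with ESC Host, 10 of the 48 were called, against 44% of all tested genes. At the same CPM cut, 1447 of 8593 genes on the other chromosomes were called higher and 2255 lower. Of the genes named below, T, Dll1 and Igf2r lie in the stretch.

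**Figure D1:**
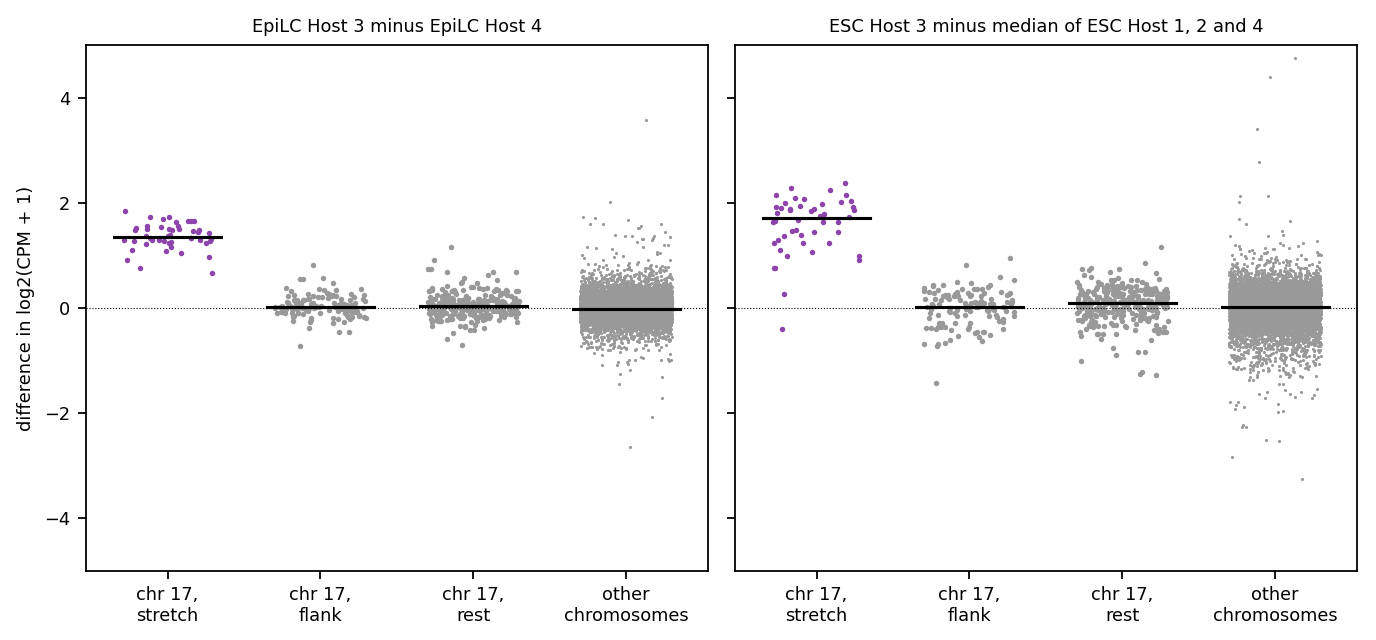
Difference in log2(CPM + 1) for genes with a mean of at least 10 CPM. Left, EpiLC Host 3 minus EpiLC Host 4; right, ESC Host 3 minus the median of ESC Host 1, 2 and 4. Each point is a gene, black bars are medians, and the classes are the stretch (48 genes in the first 18 Mb of chromosome 17), its flank up to 30 Mb (125 genes), the rest of chromosome 17 (294 genes) and the other chromosomes (8593 genes). The stretch sits at medians of 1.35 and 1.71, while the other classes sit close to 0.

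Conversion changed 7206 of 16363 tested genes (44%) at a Benjamini-Hochberg adjusted p under 0.05 in the quasi-likelihood test of edgeR, which is what "called" means here. Of these, 3663 (22.4%) were higher and 3543 (21.7%) were lower in EpiLC Host. The changes were large: the median absolute log2 fold change of called genes was 1.56, 477 genes rose and 387 fell at least 16-fold, and 102 rose and 140 fell at least 64-fold. Lines 3 and 4, each set against its own parent, both moved in the fitted direction for 7156 of the called genes (99.3%), against 77.1% of all tested genes. The same libraries gave the calls and the fitted direction, so this agreement is largely built in and is no independent support. The median log2 fold change over all tested genes was -0.03. For 9181 genes (56.1%) the EpiLC and ESC libraries did not overlap, and this share is the background for any single gene whose groups stand apart. Of the 9157 genes not called, 54.4% had a 95% interval within 1 log2 unit of no change, so a change of more than 2-fold lay outside the interval only for those. Between 4901 and 7189 genes were called when 1 library was left out, the lowest being without EpiLC Host 3.

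**Figure D2:**
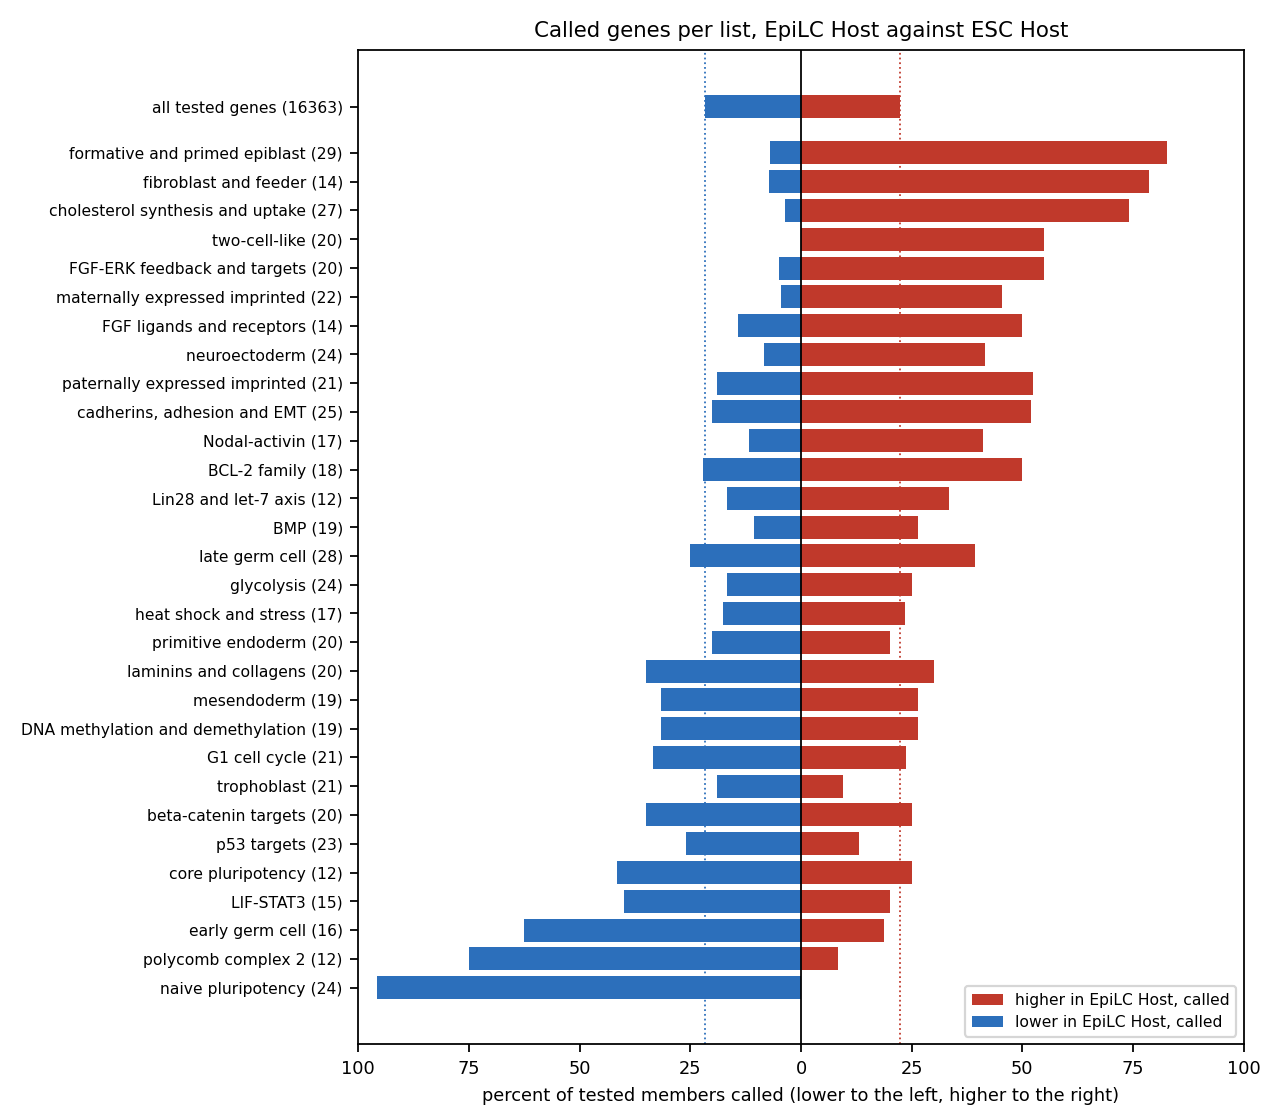
Percent of the tested members of each gene list that were called higher (red, right) or lower (blue, left) in EpiLC Host than in ESC Host; the number tested is in brackets. The top bar and the dotted lines give all tested genes (22.4% higher, 21.7% lower). Naive pluripotency genes reach furthest to the left (23 of 24), and formative and primed epiblast genes furthest to the right (24 of 29).

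The naive pluripotency genes were lost almost as a set. Of 24 genes tested, 23 were lower and 0 were higher, and the median log2 fold change was -4.38, with or without Spic at its bound. Tfcp2l1, a transcription factor at the centre of the naive network, was at 7.85 and 6.86 CPM in EpiLC Host 3 and 4, against 1177, 1185, 908 and 847 CPM in ESC Host 1 to 4. For Tfcp2l1, the log2 fold change was -7.13 ± 0.28 (SE, adjusted p = 3.05e-11). Esrrb, an orphan nuclear receptor of the same network, was at 37 and 24.6 CPM in EpiLC Host 3 and 4, against 799, 834, 929.7 and 797 CPM in ESC Host 1 to 4. For Esrrb, the log2 fold change was -4.77 ± 0.21 (SE, adjusted p = 5.51e-11). In both, every EpiLC value lay far below every ESC value. All 3 Krüppel-like factors of the list fell. Klf4 was at 2.53 and 2.88 CPM in EpiLC Host 3 and 4, against 440.2, 619, 419 and 274 CPM in ESC Host 1 to 4. For Klf4, the log2 fold change was -7.33 ± 0.56 (SE, adjusted p = 2.37e-08). Klf2 fell by 5.74 ± 0.28 and Klf5 by 3.59 ± 0.25. Tbx3, a T-box factor, fell by 7.74 ± 0.42, Nr5a2, an orphan receptor that binds the Pou5f1 enhancer, by 7.39 ± 0.51, and Nr0b1 (Dax1) by 4.42 ± 0.47 on the log2 scale.

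Some naive genes were almost undetected in EpiLC Host. Prdm14, which keeps FGF signalling and DNA methylation low in naive cells, was at 0.0402 and 0.0356 CPM in EpiLC Host 3 and 4, against 114, 57.9, 56.8 and 64.1 CPM in ESC Host 1 to 4, the ESC Host 1 value standing above the other three. Spic, an ETS factor, had 0 counts in both EpiLC libraries and 1845 counts over the ESC lines, at least 332-fold lower with a floor of 3 counts over the group. Jam2, a junctional adhesion molecule, was at 0.805 and 0.284 CPM in EpiLC Host 3 and 4, against 407, 416, 323 and 234 CPM in ESC Host 1 to 4. For Jam2, the log2 fold change was -9.32 ± 0.38 (SE, adjusted p = 3.05e-11). Others kept a residue. Zfp42 (Rex1), the usual reporter gene for exit from the naive state, was at 23.9 and 24 CPM in EpiLC Host 3 and 4, against 139.5, 149.5, 144 and 154 CPM in ESC Host 1 to 4. It fell by 2.61 ± 0.12 log2 units, and its values were close to one another within both groups. Fgf4, the FGF ligand made by ESCs themselves, was at 114 and 96.3 CPM in EpiLC Host 3 and 4, against 338, 385, 238 and 282 CPM in ESC Host 1 to 4. For Fgf4, the log2 fold change was -1.56 ± 0.17 (SE, adjusted p = 9.57e-07). Dppa5a, an RNA-binding protein of the oocyte and early embryo, stayed at 445 and 257 CPM in EpiLC Host 3 and 4, against 1095 to 2208 CPM in the ESC lines. Dppa3 (Stella) was at 9.13 and 6.40 CPM in EpiLC Host 3 and 4, against 22.3, 24, 23.7 and 84.2 CPM in ESC Host 1 to 4; ESC Host 4 was the high library, and without EpiLC Host 4 the adjusted p was 0.0609. Gbx2 was the naive gene that did not pass the test, at 50.9 and 72.2 CPM in EpiLC Host 3 and 4, against 66.1, 35.5, 45 and 42 CPM in ESC Host 1 to 4.

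**Figure D3:**
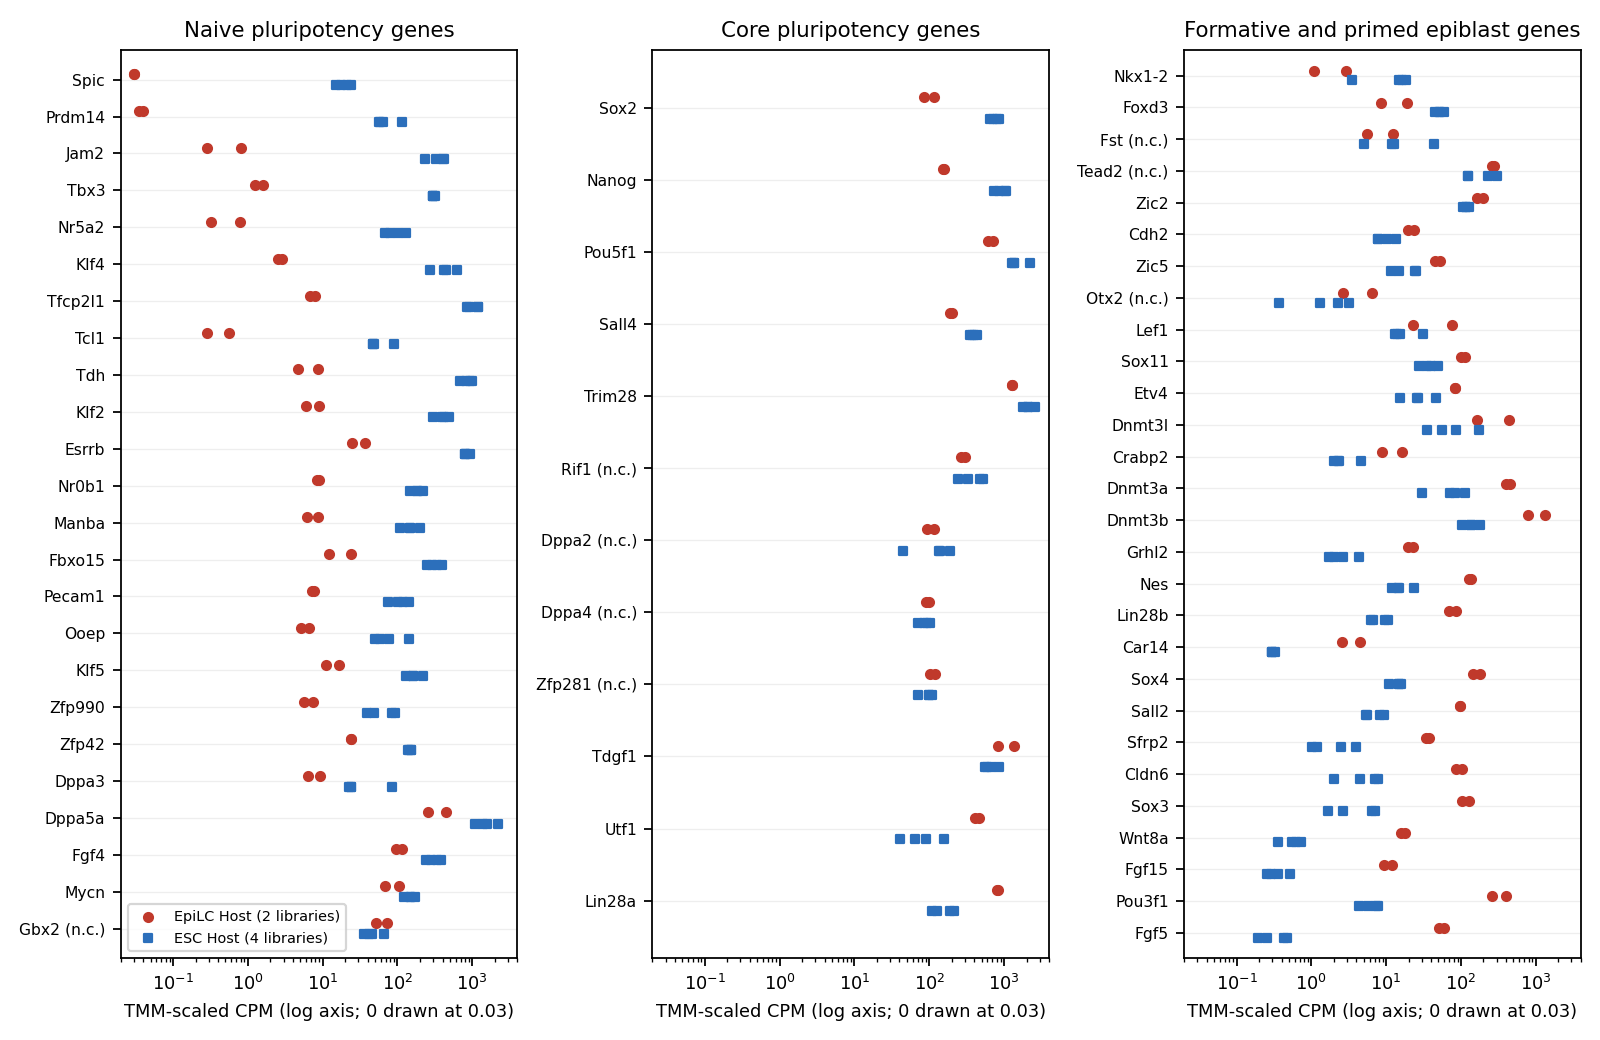
TMM-scaled CPM in each library (log axis, 0 drawn at 0.03) for naive, core and most formative or primed genes, ordered by fold change. Red circles are the 2 EpiLC Host libraries and blue squares the 4 ESC Host libraries; n.c. marks genes not called. Naive genes such as Spic, Prdm14 and Jam2 are near the left edge in EpiLC Host, 4 of 12 core genes are marked n.c., and Fgf5 shows a wide gap among formative genes.

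Core pluripotency genes were split: of 12 tested, 3 were higher, 5 were lower and 4 were not called (median log2 fold change -0.37). Pou5f1 (Oct4) was at 618 and 722 CPM in EpiLC Host 3 and 4, against 1278, 1359, 1369.7 and 2207 CPM in ESC Host 1 to 4 (log2 fold change -1.21 ± 0.23 (SE), adjusted p = 0.000372), with ESC Host 4 above the other ESC lines. Sox2 was at 86.3 and 115 CPM in EpiLC Host 3 and 4, against 657, 716, 817 and 864 CPM in ESC Host 1 to 4. For Sox2, the log2 fold change was -2.92 ± 0.20 (SE, adjusted p = 4.22e-09). Nanog was at 155 and 152 CPM in EpiLC Host 3 and 4, against 1072, 744, 849 and 1027 CPM in ESC Host 1 to 4. For Nanog, the log2 fold change was -2.59 ± 0.35 (SE, adjusted p = 1.11e-05). For these 3 genes the groups did not overlap, and the EpiLC levels were still 86.3 CPM or more. Utf1, a chromatin factor of pluripotent cells, and Lin28a, an RNA-binding protein that blocks let-7 maturation, rose. Lin28a was at 811 and 820.2 CPM in EpiLC Host 3 and 4, against 108, 192, 213 and 128 CPM in ESC Host 1 to 4. For Lin28a, the log2 fold change was 2.35 ± 0.49 (SE, adjusted p = 0.000841). The higher call of Tdgf1, the Nodal co-receptor, rested on EpiLC Host 3, since the adjusted p was 0.355 without it. Dppa2, Dppa4, Rif1 and Zfp281 were not called, and their EpiLC values lay within or beside the ESC range.

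Of 29 formative and primed epiblast genes, 24 were higher and 2 were lower (median log2 fold change 2.52). Fgf5, the FGF ligand that marks the early postimplantation epiblast, was at 50.5 and 58.7 CPM in EpiLC Host 3 and 4, against 0.259, 0.429, 0.195 and 0.472 CPM in ESC Host 1 to 4. For Fgf5, the log2 fold change was 7.38 ± 0.48 (SE, adjusted p = 3.4e-09). Pou3f1, a POU factor of the same stage, was at 261 and 397 CPM in EpiLC Host 3 and 4, against 7.36, 4.33, 5.65 and 7.90 CPM in ESC Host 1 to 4. For Pou3f1, the log2 fold change was 5.71 ± 0.33 (SE, adjusted p = 8.42e-10). Both were low in every ESC line and far higher in both EpiLC libraries. Sox3, Sox4 and Sox11 rose together with Zic5, Grhl2 and Sall2, all transcription factors of the epiblast or early neural plate. The call of Sox11 was lost without EpiLC Host 4 (adjusted p = 0.0811) and with the line as a block (adjusted p = 0.0711). Sox4 was at 182 and 144 CPM in EpiLC Host 3 and 4, against 11, 15, 15.6 and 14.9 CPM in ESC Host 1 to 4, and Sall2 was level between the 2 EpiLC libraries, at 96.6 and 96.8 CPM in EpiLC Host 3 and 4, against 5.55, 9.26, 8.25 and 5.31 CPM in ESC Host 1 to 4. Wnt8a, a Wnt ligand of the primitive streak, and Fgf15, under 1 CPM in every ESC line, rose by 4.87 ± 0.36 and 4.89 ± 0.45 log2 units. Zic2, Cdh2 and Lef1 were called higher by small margins and lost the call without 1 or more libraries. Lef1 depended on EpiLC Host 4, where it stood at 76.3 CPM against 22.5 CPM in EpiLC Host 3.

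A few members of that list were lower or were not called. Otx2, a homeobox factor that drives the formative state, was at 2.66 and 6.54 CPM in EpiLC Host 3 and 4, against 0.37, 3.21, 1.30 and 2.24 CPM in ESC Host 1 to 4. The lower EpiLC value lay among those of the ESC lines and the gene was not called (log2 fold change 1.39 ± 0.66 (SE), adjusted p = 0.0968). Its level was low in all 6 libraries. Without ESC Host 2 it was called, at 1.86 log2 units and an adjusted p of 0.0397. Foxd3, a forkhead factor needed to leave the naive state, was at 8.41 and 18.8 CPM in EpiLC Host 3 and 4, against 60.2, 51.9, 51.7 and 45.2 CPM in ESC Host 1 to 4. For Foxd3, the log2 fold change was -1.94 ± 0.39 (SE, adjusted p = 0.000618). It was lower in both EpiLC libraries than in any ESC line. Nkx1-2 also fell by 2.71 ± 0.68, a call lost with the line as a block (adjusted p = 0.0711). Tead2 and Fst were not called, but Tead2 was called higher without ESC Host 4, at 0.75 log2 units (adjusted p = 0.0142).

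Among 19 genes of DNA methylation and demethylation, 5 were higher and 6 lower, and both active de novo methyltransferases were among those that rose. Without EpiLC Host 3, without EpiLC Host 4 or without ESC Host 1, 3 were higher. Dnmt3b was at 776 and 1313 CPM in EpiLC Host 3 and 4, against 137, 138, 181 and 104 CPM in ESC Host 1 to 4. For Dnmt3b, the log2 fold change was 2.90 ± 0.28 (SE, adjusted p = 3.01e-07). Dnmt3a was at 401 and 458 CPM in EpiLC Host 3 and 4, against 83.8, 30.2, 114 and 70.6 CPM in ESC Host 1 to 4. For Dnmt3a, the log2 fold change was 2.52 ± 0.35 (SE, adjusted p = 1.89e-05). The groups did not overlap for either gene. Dnmt3l, the catalytically inactive cofactor, was at 433 and 165 CPM in EpiLC Host 3 and 4, against 35.1 to 173 CPM in ESC Host, and was not called without EpiLC Host 3 (adjusted p = 0.398). Uhrf1, which guides Dnmt1 to newly replicated DNA, fell by 0.73 ± 0.15, while Dnmt1 itself was not called (-0.24 ± 0.19). The Tet dioxygenases oxidise methylcytosine. Tet2 was at 17.9 and 12.3 CPM in EpiLC Host 3 and 4, against 218, 135, 115 and 91.6 CPM in ESC Host 1 to 4. For Tet2, the log2 fold change was -3.21 ± 0.46 (SE, adjusted p = 2.26e-05). Tet1 fell by 0.94 ± 0.23, and Tet3 rose by 1.68 ± 0.55. Zfp57, a KRAB zinc finger protein that protects methylation at imprints, was at 93.1 and 55.3 CPM in EpiLC Host 3 and 4, against 616, 829, 592 and 578 CPM in ESC Host 1 to 4. For Zfp57, the log2 fold change was -3.14 ± 0.27 (SE, adjusted p = 6.51e-08). Both EpiLC values were far under the ESC range.

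Feedback regulators and targets of FGF-ERK signalling, which PD0325901 blocks in 2i, were more often higher than lower: 11 of 20 were higher, 1 was lower and the median was 1.36. Dusp6, the phosphatase that inactivates ERK, was at 308 and 227 CPM in EpiLC Host 3 and 4, against 5.85, 8.27, 10.5 and 7.90 CPM in ESC Host 1 to 4. For Dusp6, the log2 fold change was 5.03 ± 0.32 (SE, adjusted p = 2.28e-09). Both EpiLC values were far above those of every ESC line. Spry4 and Spred1, inhibitors upstream of RAF, rose by 3.88 ± 0.57 and 2.36 ± 0.38, and Myc rose by 3.23 ± 0.36. Etv5, an ETS factor downstream of FGF, was the member that fell (log2 fold change -0.50 ± 0.13 (SE), adjusted p = 0.00505), but 0 members were lower without EpiLC Host 3 and 2 without ESC Host 3. Its relatives Etv4 and Etv1 rose by 1.53 ± 0.40 and 0.65 ± 0.23. Egr1 was at 24.8 and 39.9 CPM in EpiLC Host 3 and 4, against 0.962, 0.643, 16.5 and 0.531 CPM in ESC Host 1 to 4; ESC Host 3 was high among the ESC lines and the gene was not called. Spry2 was not called either (-0.18 ± 0.23). Of 14 FGF ligands, receptors and cofactors tested, 7 were higher and 2 lower. Fgf8 was at 9.41 and 13.5 CPM in EpiLC Host 3 and 4, against 0.555, 0.214, 0.0975 and 0.413 CPM in ESC Host 1 to 4. Fgfr1 rose by 0.60 ± 0.16 and Fgfr2 by 1.44 ± 0.42, while Klb, a co-receptor for endocrine FGFs, fell by 3.76 ± 0.70.

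The genes of pathways driven by 2i/LIF changed in both directions. Of 15 LIF-STAT3 genes, 6 were lower and 3 higher. Stat3 was at 14.7 and 13.9 CPM in EpiLC Host 3 and 4, against 119, 140.1, 142 and 84.6 CPM in ESC Host 1 to 4. For Stat3, the log2 fold change was -3.08 ± 0.25 (SE, adjusted p = 3.5e-08). The receptor chains Lifr and Il6st fell by 2.90 ± 0.31 and 2.03 ± 0.23, and the target genes Socs3 and Bcl3 by 2.95 ± 0.22 and 5.30 ± 0.34. Pim1, a kinase gene often listed as a STAT3 target, was higher (log2 fold change 1.79 ± 0.28 (SE), adjusted p = 5.65e-05). Among 20 beta-catenin targets, 7 were lower and 5 higher, and 3 were higher without EpiLC Host 4 or with the line as a block. Notum, a secreted enzyme that inactivates Wnt, was at 0.845 and 1.24 CPM in EpiLC Host 3 and 4, against 144, 196, 75.9 and 124 CPM in ESC Host 1 to 4. For Notum, the log2 fold change was -7.00 ± 0.46 (SE, adjusted p = 3.4e-09). Sp5, a zinc finger factor and direct Wnt target, was at 0.684 and 0.711 CPM in EpiLC Host 3 and 4, against 75.4, 71.2, 53.8 and 49.6 CPM in ESC Host 1 to 4. For Sp5, the log2 fold change was -6.47 ± 0.51 (SE, adjusted p = 2.96e-08). Both were near 1 CPM in EpiLC Host and abundant in every ESC line. Axin2 fell by 2.55 ± 0.40, whereas the cytoplasmic Wnt inhibitors Nkd1 and Nkd2 rose by 2.19 ± 0.35 and 3.86 ± 0.33.

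Of 17 Nodal and activin genes, 7 were higher and 2 lower, and 4 were higher without EpiLC Host 3, close to the 22.4% of all tested genes. Lefty1, a secreted Nodal inhibitor and target, was at 979 and 571 CPM in EpiLC Host 3 and 4, against 19.3, 17.6, 12.3 and 30.3 CPM in ESC Host 1 to 4. For Lefty1, the log2 fold change was 5.29 ± 0.53 (SE, adjusted p = 4.44e-07). EpiLC Host 3 was above EpiLC Host 4, and both were well above every ESC line. Nodal itself was at 109 and 89.8 CPM in EpiLC Host 3 and 4, against 106, 123, 88.7 and 87.3 CPM in ESC Host 1 to 4, with overlapping groups, and was not called (-0.02 ± 0.16, 95% interval -0.36 to 0.32). Lefty2 was not called (0.23 ± 0.45). Pcsk6, a proprotein convertase, fell by 2.66 ± 0.30. Of 19 BMP genes, 5 were higher and 2 lower, and 2 were higher without EpiLC Host 3 and 3 without EpiLC Host 4. Called members made up 36.8% of the BMP list, against 44% of all tested genes. Id3 and Id4, inhibitors of bHLH factors, fell by 1.83 ± 0.38 and 3.49 ± 0.29, and Id1 rose by 1.58 ± 0.52. Bmp4 was at 1.17 and 1.28 CPM in EpiLC Host and between 1.43 and 3.04 CPM in ESC Host, and was not called.

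Genes shared with germ cells were taken by stage. Of 16 early germ cell genes, 10 were lower and 3 higher (median -2.54). Tfap2c, an AP-2 factor of primordial germ cells and naive ESCs, was at 10.3 and 7.11 CPM in EpiLC Host 3 and 4, against 88.2, 114, 151 and 145 CPM in ESC Host 1 to 4. For Tfap2c, the log2 fold change was -3.84 ± 0.36 (SE, adjusted p = 2.41e-07). Alpl, the alkaline phosphatase used to stain both cell types, fell by 2.62 ± 0.14, and Kit by 3.28 ± 0.26. Prdm1 (Blimp1), which specifies the germ line, was at 3.86 and 5.41 CPM in EpiLC Host 3 and 4, against 5.51, 12.1, 4 and 10.5 CPM in ESC Host 1 to 4 and was not called. Nanos3 was under 5 CPM in every library and lower in EpiLC Host (-2.89 ± 0.61). Epcam rose by 2.83 ± 0.36. In the late germ cell list, 11 of 28 were higher and 7 lower (median 0.76), and 6 were higher without EpiLC Host 3. Tdrkh, a Tudor protein of the piRNA pathway, was at 25.8 and 23.3 CPM in EpiLC Host 3 and 4, against 1.29, 0.857, 2.37 and 2.30 CPM in ESC Host 1 to 4. For Tdrkh, the log2 fold change was 3.85 ± 0.47 (SE, adjusted p = 3.91e-06). Mael, Meioc and Ddx4 rose by 2.41 ± 0.41, 2.43 ± 0.30 and 1.34 ± 0.36. Tdrd12 fell by 2.52 ± 0.20.

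Genes of the two-cell-like state, a rare state in ESC cultures that resembles the two-cell embryo, were higher in 11 of 20 and lower in 0, but this rested on 1 library. Zscan4d was at 44.2 and 13.8 CPM in EpiLC Host 3 and 4, against 9.58, 1.97, 3.12 and 3.71 CPM in ESC Host 1 to 4. For Zscan4d, the log2 fold change was 2.65 ± 0.67 (SE, adjusted p = 0.0037). Its EpiLC Host 3 value was more than 3 times that of EpiLC Host 4, which lay close to ESC Host 1. Without EpiLC Host 3, 0 members were called (adjusted p = 0.152 for Zscan4d), without ESC Host 1, 17 were, and with the compared groups alone, 7 were. The Zscan4 and Usp17l genes are near-identical copies, so the split of reads among them is uncertain.

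Counts for markers of other lineages stand against 22.4% higher and 21.7% lower over all tested genes, and the primitive endoderm list was close to both shares. In bulk RNA, fewer cells of a type and less RNA per cell cannot be told apart. Of 20 primitive endoderm genes, 4 were higher (2 without EpiLC Host 3) and 4 lower, and Gata6 and Sox17, which define that lineage, were under 1.5 CPM in every library. Sparc, a secreted matrix protein of the lineage, fell to 181 and 111 CPM in EpiLC Host 3 and 4, against 609, 864, 789 and 774 CPM in ESC Host 1 to 4. Dab2, an endocytic adaptor, rose by 3.68 ± 0.53. Of 21 trophoblast genes, 2 were higher and 4 lower, and 2 were lower without EpiLC Host 4 and 7 by DESeq2. Elf5 had 0 counts in EpiLC Host and 14 counts over ESC Host. Cdx2 was at 0.966 and 0.64 CPM in EpiLC Host 3 and 4, against 8.77, 2.61, 1.30 and 2 CPM in ESC Host 1 to 4, and was not called. Tead4, a TEAD factor of the trophectoderm that naive ESCs also express, fell by 4.08 ± 0.32. Mesendoderm genes were divided, with 5 of 19 higher and 6 lower. Wnt3 was at 14 and 8.68 CPM in EpiLC Host 3 and 4, against 0.999, 1.20, 0.455 and 1.42 CPM in ESC Host 1 to 4 and was among those that rose. Gsc fell to 0.603 and 0.284 CPM in EpiLC Host, against 6.69 to 17.6 CPM in ESC Host. T (Brachyury), which lies in the chromosome 17 stretch, was at 7.20 and 3.63 CPM in EpiLC Host 3 and 4, against 10.1, 6.47, 20.4 and 1.95 CPM in ESC Host 1 to 4 and was not called.

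Neuroectoderm genes were more often higher, with 10 of 24 higher and 2 lower (median 0.53), or 1 lower without EpiLC Host 3. Sox1, an early neural SoxB1 factor, was at 97.4 and 86.2 CPM in EpiLC Host 3 and 4, against 2.37, 4.07, 2.47 and 1.71 CPM in ESC Host 1 to 4. For Sox1, the log2 fold change was 5.10 ± 0.29 (SE, adjusted p = 7.01e-10). Nes, an intermediate filament gene, was at 136 and 128 CPM in EpiLC Host 3 and 4, against 14.2, 11.8, 14.7 and 23.5 CPM in ESC Host 1 to 4. For Nes, the log2 fold change was 3.05 ± 0.23 (SE, adjusted p = 1.43e-08). Irx3, an Iroquois homeobox gene, and Dll1, a Notch ligand from the chromosome 17 stretch, rose by 4.98 ± 0.51 and 4.80 ± 0.48. Pax6 was at 6.92 and 8.11 CPM in EpiLC Host 3 and 4, against 0.481, 0.814, 0.715 and 2.54 CPM in ESC Host 1 to 4, with ESC Host 4 highest among the ESC lines. Among markers of fibroblasts and feeder cells, 11 of 14 tested were higher and 1 was lower (median 2.88), or 2 lower without ESC Host 2 or ESC Host 4. Tagln, an actin-binding protein of smooth muscle and fibroblasts, was at 75.5 and 41.9 CPM in EpiLC Host 3 and 4, against 0.962, 1.67, 1.46 and 1 CPM in ESC Host 1 to 4. For Tagln, the log2 fold change was 5.51 ± 0.35 (SE, adjusted p = 2.09e-09). Some other members were low or at 0 in both EpiLC libraries: Dcn at 1.73 and 2.60 CPM, Col1a2 at 2.74 and 2.99 CPM, Postn at 0, and Lum and Prrx1 at 2 counts each over both. They are a chosen few from a list in which 11 of 14 tested genes were higher. The summed level of the list was 251 to 312 CPM in EpiLC Host and 674 to 1689 CPM in ESC Host. Fn1 (fibronectin) made up most of it in ESC Host, and without Fn1 it was 126 to 168 CPM in EpiLC Host and 11.4 to 27.7 CPM in ESC Host. The part of such cells in the result was not tested.

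Several epithelial adhesion genes rose. Of 25 cadherin, adhesion and epithelial-mesenchymal transition genes, 13 were higher and 5 lower. Esrp1, an epithelial splicing regulator, was at 66.7 and 90.5 CPM in EpiLC Host 3 and 4, against 0.74, 3.86, 0.975 and 2.54 CPM in ESC Host 1 to 4. For Esrp1, the log2 fold change was 5.31 ± 0.62 (SE, adjusted p = 2.74e-06). The claudins Cldn6 and Cldn7 rose by 4.18 ± 0.50 and 3.82 ± 0.39. Pcdh1, a protocadherin, was at 68.8 and 86.8 CPM in EpiLC Host 3 and 4, against 0.999, 1.03, 1.17 and 0.059 CPM in ESC Host 1 to 4. Cdh1 (E-cadherin) was abundant in all libraries, at 464 and 501 CPM in EpiLC Host 3 and 4, against 534, 708, 515 and 465 CPM in ESC Host 1 to 4, and was not called, while Cdh3 (P-cadherin) rose by 1.70 ± 0.47. Vim (vimentin) fell by 1.36 ± 0.42 and Zeb1 by 1.44 ± 0.31, while Zeb2, under 0.5 CPM in every ESC line, rose by 3.56 ± 0.64. Basement membrane genes were divided: of 20 laminin, collagen and linker genes, 6 were higher (3 without EpiLC Host 3) and 7 lower. Fn1 was at 144 and 124 CPM in EpiLC Host 3 and 4, against 1278, 1352, 1669 and 663 CPM in ESC Host 1 to 4. For Fn1, the log2 fold change was -3.21 ± 0.40 (SE, adjusted p = 5.7e-06). Nid1, which links laminin to collagen IV, fell by 4.23 ± 0.39, Lamc1 fell by 1.43 ± 0.36 and Col4a1 rose by 1.72 ± 0.45.

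In the BCL-2 family, which sets the threshold for apoptosis, 9 of 18 genes were higher and 4 lower. Pmaip1 (Noxa), a BH3-only gene, was at 297 and 314 CPM in EpiLC Host 3 and 4, against 46.1, 51.3, 21.3 and 24.2 CPM in ESC Host 1 to 4. For Pmaip1, the log2 fold change was 3.10 ± 0.61 (SE, adjusted p = 0.000542). Bcl2l11 (Bim) was at 48 and 49.8 CPM in EpiLC Host 3 and 4, against 16.6, 10.0, 14.2 and 14.3 CPM in ESC Host 1 to 4. For Bcl2l11, the log2 fold change was 1.82 ± 0.17 (SE, adjusted p = 2.13e-07). Of the protective members, Bcl2, under 0.5 CPM in every ESC line, rose by 4.83 ± 0.44, Mcl1 rose by 0.42 ± 0.13, and Bcl2l1 (Bcl-x) fell by 0.67 ± 0.13. Bbc3 (Puma) was higher by 0.87 ± 0.26, a call lost with the line as a block and without EpiLC Host 3 (adjusted p = 0.0935). The effector Bak1 fell by 0.88 ± 0.20. Bax was at 217 and 253 CPM in EpiLC Host 3 and 4, against 277, 286, 338 and 632 CPM in ESC Host 1 to 4, with ESC Host 4 the highest, and was not called (log2 fold change -0.70 ± 0.28 (SE), adjusted p = 0.0508). With the parent lines alone as ESC Host it was called, at -1.04. Among 23 p53 targets and regulators, 3 were higher and 6 lower (median -0.03), a balance that depended on the ESC lines compared. Called members made up 39.1% of them, against 44% of all tested genes. With the line as a block, and also with the parent lines alone, 7 were higher and 4 lower (medians 0.29 and 0.31), and without EpiLC Host 3 1 was higher. Trp53 itself was at 262 and 254 CPM in EpiLC Host 3 and 4, against 491, 475, 684 and 584 CPM in ESC Host 1 to 4. For Trp53, the log2 fold change was -1.11 ± 0.16 (SE, adjusted p = 2.53e-05). Cdkn1a (p21) fell by 1.00 ± 0.22. Mdm2 was not called (-0.15 ± 0.19).

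Of 27 genes of cholesterol synthesis and uptake, 20 were higher and 1 was lower (median 0.92), or 2 lower without ESC Host 1 or with the line as a block. Lss, which makes lanosterol, was at 204 and 248 CPM in EpiLC Host 3 and 4, against 53.9, 57.3, 64.2 and 61.2 CPM in ESC Host 1 to 4. For Lss, the log2 fold change was 1.93 ± 0.13 (SE, adjusted p = 6.18e-09). The groups did not overlap. Ebp, a sterol isomerase, was the member that fell (-2.81 ± 0.50). Of 24 glycolytic genes, 6 were higher and 4 lower, shares close to those of all tested genes, and 2 were lower without EpiLC Host 4. Pfkp fell by 3.31 ± 0.34 while Pfkl, another phosphofructokinase, rose by 1.30 ± 0.27. Hk1 was lower by 2.22 ± 0.30 log2 units. Slc16a3, a lactate exporter, was at 219 and 217 CPM in EpiLC Host 3 and 4, against 21.4, 10.2, 39.1 and 17.4 CPM in ESC Host 1 to 4. For Slc16a3, the log2 fold change was 3.30 ± 0.42 (SE, adjusted p = 5.94e-06). Gapdh and Pkm were not called.

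In the G1 cell cycle list, 5 of 21 genes were higher, close to the 22.4% of all tested genes, and 7 were lower. Without EpiLC Host 3, 3 were higher and 4 lower, and without EpiLC Host 4, 3 were higher. Ccnd1 and Ccnd2, D-type cyclins, rose by 0.73 ± 0.23 and 2.19 ± 0.54 while Ccnd3 fell by 1.63 ± 0.32. Genes of polycomb repressive complex 2, which trimethylates histone H3 at lysine 27, were lower in 9 of 12 and higher in 1 (median -0.68), but 5 were lower and 0 higher without EpiLC Host 4. Eed, a core subunit, was at 107 and 107 CPM in EpiLC Host 3 and 4, against 268, 302, 295 and 235 CPM in ESC Host 1 to 4. For Eed, the log2 fold change was -1.36 ± 0.16 (SE, adjusted p = 2.95e-06). Suz12 fell by 1.15 ± 0.20. The methyltransferase Ezh2 fell by 0.33 ± 0.12; the accessory subunit Phf19 rose by 1.57 ± 0.41. In the Lin28 and let-7 axis, 4 of 12 genes were higher and 2 lower. Without EpiLC Host 3, 2 were higher and 0 lower, and 1 was lower with the line as a block, without ESC Host 1 or without ESC Host 2. Lin28b was at 69.4 and 85.5 CPM in EpiLC Host 3 and 4, against 6.77, 10.7, 9.68 and 6.19 CPM in ESC Host 1 to 4. For Lin28b, the log2 fold change was 3.21 ± 0.25 (SE, adjusted p = 2.7e-08).

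Of the imprinted genes, 11 of 21 paternally expressed genes were higher and 4 lower (median 1.60), and 10 of 22 maternally expressed genes were higher and 1 lower (median 1.13). Without EpiLC Host 3, 6 paternally expressed genes were higher and 2 lower (median 0.94), and without EpiLC Host 4, or with the line as a block, 2 were lower. Of the maternally expressed genes, 0 were lower without EpiLC Host 4, 2 without ESC Host 1 or ESC Host 3, and 3 with the line as a block. Counts per gene do not separate the parental alleles. Nnat was at 38.8 and 39.3 CPM in EpiLC Host 3 and 4, against 3.85, 3.17, 1.95 and 2.06 CPM in ESC Host 1 to 4. For Nnat, the log2 fold change was 3.82 ± 0.34 (SE, adjusted p = 1.25e-07). Cdkn1c, a cyclin-dependent kinase inhibitor, was at 89.3 and 82.8 CPM in EpiLC Host 3 and 4, against 4.03, 8.61, 7.67 and 13.9 CPM in ESC Host 1 to 4. For Cdkn1c, the log2 fold change was 3.34 ± 0.38 (SE, adjusted p = 1.83e-06). Grb10, a growth factor receptor adaptor, was at 349.8 and 339.6 CPM in EpiLC Host 3 and 4, against 47.1, 24.3, 47.9 and 34 CPM in ESC Host 1 to 4. For Grb10, the log2 fold change was 3.17 ± 0.43 (SE, adjusted p = 1.33e-05). The 2 EpiLC values agreed closely for these genes and stood above all ESC lines. Plagl1, a zinc finger gene, fell by 3.49 ± 0.61. H19, Meg3 and Igf2r were not called, and Igf2r lies in the chromosome 17 stretch. Of 17 heat shock and stress genes, 4 were higher and 3 lower, and 2 were higher and 1 lower without EpiLC Host 3 or without EpiLC Host 4. With the line as a block, 1 was lower. Called members made up 41.2% of this list, close to the 44% of all tested genes. Jun rose by 2.56 ± 0.26, Asns, an amino acid response gene, fell by 1.62 ± 0.21, and Atf4 was not called.

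The largest fold rises among genes reaching 10 CPM on average in EpiLC Host were mostly not on the lists. Car4, a membrane carbonic anhydrase, was at 148 and 64.2 CPM in EpiLC Host 3 and 4, against 0.148, 0.257, 0.13 and 0 CPM in ESC Host 1 to 4. For Car4, the log2 fold change was 9.50 ± 0.52 (SE, adjusted p = 2.11e-09). It was 2.31-fold higher in EpiLC Host 3 than in EpiLC Host 4. Fndc3c1, an X-linked fibronectin domain gene, was at 69.5 and 56.9 CPM in EpiLC Host 3 and 4, against 0.222, 0.0429, 0.195 and 0.118 CPM in ESC Host 1 to 4. For Fndc3c1, the log2 fold change was 8.66 ± 0.38 (SE, adjusted p = 5.48e-11). Others of the 10 largest were Jakmip2, Shisa6, Epha8 (an ephrin receptor), Fgf5, Cnr1 (the cannabinoid receptor), Fam131b and Rgs2, with a fitted log2 fold change of 7.13 for Rgs2, the lowest. For all 10 the ESC lines lay under 0.5 CPM. On the other side, Trpm1, a cation channel of melanocytes and retina, had 0 counts in both EpiLC libraries, against 108.9, 102, 50.2 and 101 CPM in ESC Host 1 to 4, at least 1547-fold lower. Osm, a cytokine of the LIF family, also had 0 counts in EpiLC Host and 11.3 to 29.5 CPM in ESC Host, at least 360-fold lower. All 4 ESC lines expressed both genes. In all, 120 called genes had 0 counts in both EpiLC libraries and 60 had 0 counts in all 4 ESC lines; of the second kind, Gpm6a, a neuronal membrane protein, was at 5.31 and 3.95 CPM in EpiLC Host, at least 150.0-fold higher.

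By absolute level, the largest gains were Dnmt3b, Lefty1, Odc1, Fasn, Lin28a, Tuba1a, Notch3 and Txnrd1. Notch3, a Notch receptor, was at 618 and 492 CPM in EpiLC Host 3 and 4, against 44.2, 52.5, 43.7 and 17.9 CPM in ESC Host 1 to 4. For Notch3, the log2 fold change was 3.81 ± 0.41 (SE, adjusted p = 9.17e-07). Tuba1a, an alpha-tubulin of neural cells, was at 801 and 832 CPM in EpiLC Host 3 and 4, against 179, 209, 199.5 and 204 CPM in ESC Host 1 to 4. For Tuba1a, the log2 fold change was 2.04 ± 0.17 (SE, adjusted p = 4.16e-08). The largest losses included Hsp90aa1, Dppa5a, Fn1, Tfcp2l1, Tmsb10, Eif2s2 and Ckb. Ckb, the brain-type creatine kinase, was at 63.6 and 67.7 CPM in EpiLC Host 3 and 4, against 875, 915, 737 and 1394 CPM in ESC Host 1 to 4. For Ckb, the log2 fold change was -3.90 ± 0.25 (SE, adjusted p = 3.03e-09). ESC Host 4 was the highest of the ESC lines.

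The genes that fell most had few CpGs at their 5′ end. In the first 300 bases of 1 GENCODE M21 transcript per gene, matched for 97% of tested genes, the median was 19 CpGs and 9.96% of genes had 5 or fewer. Among genes lower in EpiLC Host the median went down with the size of the change: 21 CpGs for those lower by under 2-fold (1422 genes), 17 for 2- to 4-fold (950), 12 for 4- to 16-fold (732) and 7 for 16-fold or more (376), where 37% had 5 or fewer. Among genes that rose the median also went down with size, but less: from 25 CpGs under 2-fold to 22, 20 and, at 16-fold or more, 17 (469 genes). The share with 5 or fewer was 3.35% under 2-fold and 10% at 16-fold or more. Genes with large falls were also less abundant, with a median of 4.12 CPM in the group where they were higher, against 19.7 CPM for all tested genes. In genes at 5 to 50 CPM in the group where they were higher, those that fell 16-fold or more still had a median of 8 CpGs (121 genes, 28.9% with 5 or fewer), against 21 CpGs in genes not called (3193 genes, 5.7%). The promoter windows printed above cover another region, from 250 bases before to 50 bases after the start, so their counts cannot be set against these medians. They hold 2 CpGs for Trpm1, 3 for Spic and 21 for Tfcp2l1, which fell by 7.13 log2 units. These are descriptions of sequence; methylation was not measured, and genes are not independent replicates.

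**Figure D4:**
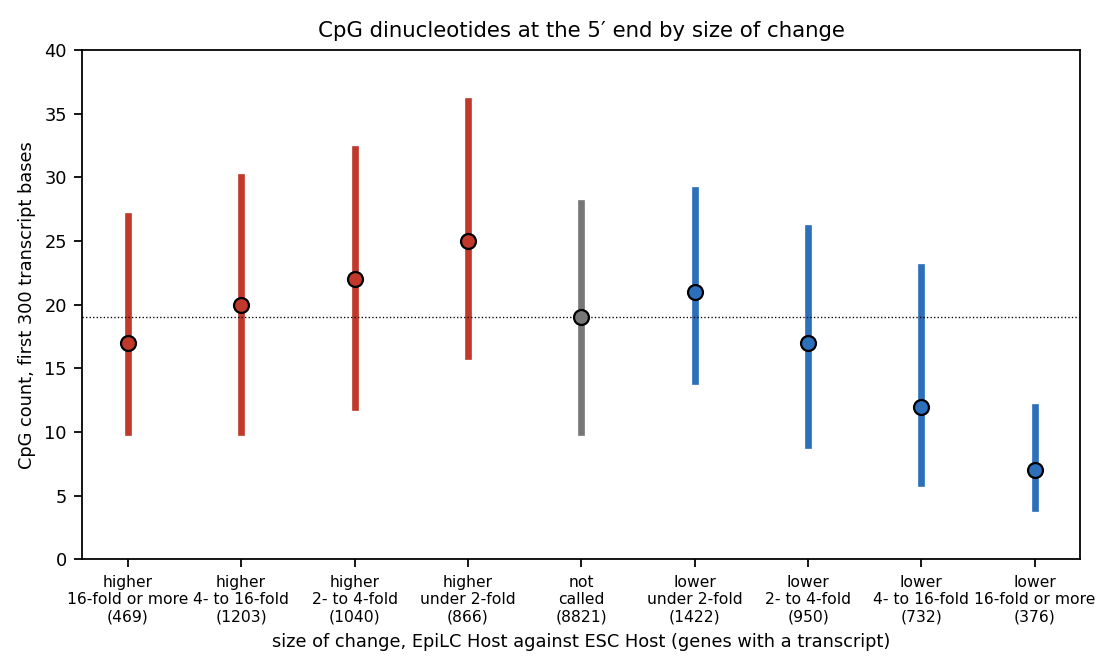
CpG dinucleotides in the first 300 bases of the transcript, by size of change between EpiLC Host and ESC Host; points are medians, bars the interquartile range, and the number of genes is in brackets. The dotted line is the median of all tested genes (19). The median is 7 in genes lower by 16-fold or more and 17 in genes higher by 16-fold or more.

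The conversion of DKO lines, which shares no library with that of the Host lines, gave 7792 called genes (47.6%), 4105 higher and 3687 lower. Of the 7206 genes called in Host lines, 6233 (86.5%) were called in the same direction in DKO lines, which is 80% of the DKO calls, and 1 was called in the opposite direction. Genotype, origin and reporter differ together between the line sets, so they cannot be told apart. The difference between the conversions was called for 1 gene of 16363 (0.00611%), and for 6 by DESeq2. In edgeR, 458 genes had an unadjusted p under 0.05, fewer than that threshold would give by chance alone. The 1 gene called by edgeR was Ccbe1, a secreted regulator of lymphatic growth. It is a neighbour of Pmaip1 (Noxa), which is knocked out in the DKO lines, and the part of that knockout in the Ccbe1 values was not tested. Ccbe1 was at 1.25 and 1.74 CPM in EpiLC Host 3 and 4, against 0.777, 0.943, 0.617 and 0.354 CPM in ESC Host 1 to 4. For Ccbe1, the log2 fold change was 1.13 ± 0.40 (SE, adjusted p = 0.0296). That call was lost without EpiLC Host 4 (adjusted p = 0.224), ESC Host 3 (adjusted p = 0.0573) or ESC Host 4 (adjusted p = 0.0645). In the DKO lines it averaged 0.982 CPM in EpiLC DKO and 9.58 CPM in PGC-ESC DKO (-3.24 ± 0.39 log2 units, adjusted p = 3.23e-06). The Host minus DKO difference was 4.37 ± 0.55 log2 units, adjusted p = 0.00486. It was not called under the line block, with the compared groups alone or without EpiLC Host 4. Pmaip1, which is knocked out in the DKO lines, had a difference of 2.54 ± 0.94 log2 units, adjusted p = 1. For Otx2 the DKO conversion gave 3.42 ± 0.69 log2 units, adjusted p = 0.000579, against 1.39 ± 0.66 in Host lines, and the difference was -2.04 ± 0.96 log2 units, adjusted p = 1. The naive genes had a median log2 fold change of -4.38 in Host lines and -3.87 in DKO lines, and the formative genes 2.52 in Host lines and 2.82 in DKO lines. The 95% interval of the difference lay within 1 log2 unit for 45.7% of genes, and for the rest the data do not bound the difference that closely.

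**Figure D5:**
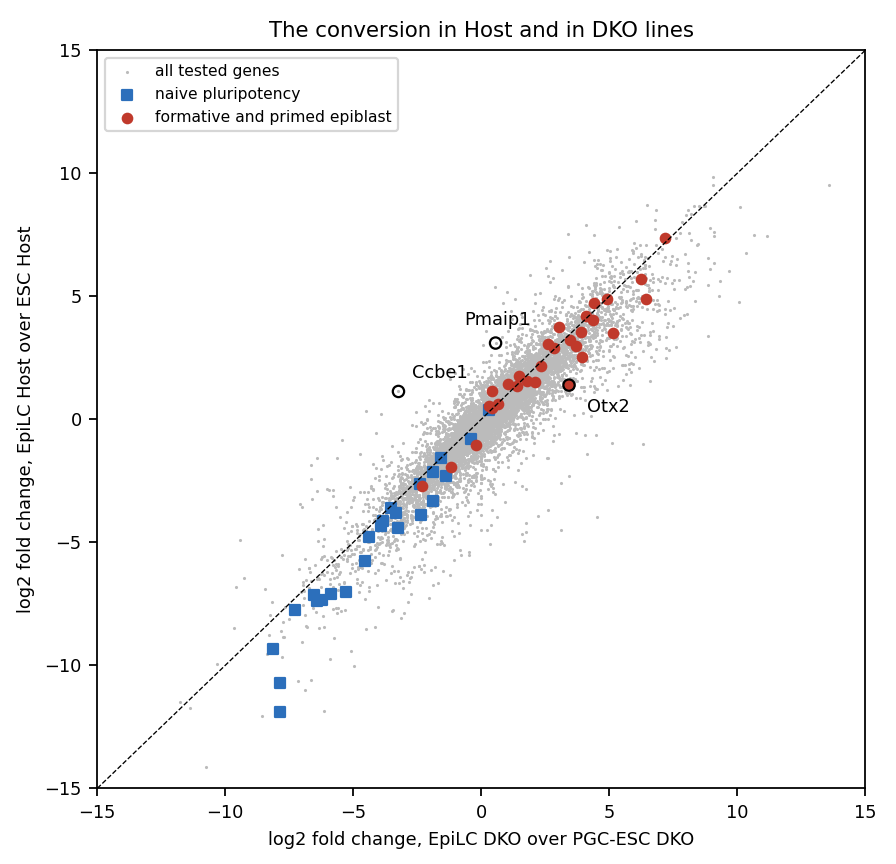
Fitted log2 fold change of the Host conversion (vertical) against that of the DKO conversion (horizontal) for 16363 genes (grey); blue squares are naive and red circles formative or primed genes, the dashed line marks equal change, and circled genes are named in the text. Of the genes called in Host lines, 99.65% have the same sign in both; Ccbe1 lies at 1.13 in Host and -3.24 in DKO lines.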

How the data were processed

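The authors deposited gene-level read counts for 21361 genes in 20 libraries, of which 6 are the Host libraries compared here. Reads were aligned with STAR 2.7.7a to mm10, per the submitters' processing notes; the sources used here do not give the counting tool, its annotation or its use of strand, so genes that overlap or have near-identical copies are uncertain. Counts were scaled by TMM, genes with low counts were removed by filterByExpr (16363 kept), and 7 groups of 20 libraries were fitted together (13 residual degrees of freedom) by the quasi-likelihood test in edgeR 4.0.16 (R 4.3.3), with Benjamini-Hochberg adjustment over all tested genes and a threshold of 0.05. The other 14 libraries add to the estimate of spread. The fit was also run on simulated counts, the outcome of which is not given here. DESeq2 1.42.0 and a fit with the line as a block were alternatives. Lines 3 and 4 occur in both groups by label, so their numbers pair the libraries; the deviations from group means correlated at 0.111 and 0.172. Genes were named by a rule: per list, at most 5 called genes, taken by adjusted p, all core, naive and formative genes, the 10 largest fold and 8 largest CPM changes in each direction, genes at 0 counts in a group, and a few checks. Further members of the lists, Tcp1 and the chromosome 17 stretch were chosen after their values were seen. A few list members are counted but not reported here by name. Members, lists and tests were chosen with earlier results of these data known. Gene positions and promoters come from RefSeq on GRCm38, and transcript sequences from GENCODE M21.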

Additional observations from a re-analysis of the deposited data

Results flagged for a closer look

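Of 167 genes named above that reached 1 CPM in an ESC line, 23 had 1 ESC Host library far from the other 3; chance flags about 1 in 20 groups. ESC Host 4 was that library in 10 genes, ESC Host 3 in 6, ESC Host 1 in 4 and ESC Host 2 in 3. ESC Host 4 was high for Pou5f1 (2207 CPM), Tmsb10 (2319 CPM), Atf4 (648 CPM), Dppa3 (84.2 CPM), Ddx3y (6.84 CPM), Phf19 (4.6 CPM) and Pax6 (2.54 CPM), and low for Spry2 (100 CPM), Spry4 (1 CPM) and Pcdh1 (0.059 CPM). ESC Host 3 was high for Tcp1 (1761 CPM), Lef1 (31.3 CPM), Etv1 (27.6 CPM) and Egr1 (16.5 CPM), and low for Trpm1 (50.2 CPM) and Cdh3 (6.21 CPM). ESC Host 1 was high for Prdm14 (114 CPM), Tet3 (12.5 CPM) and Id1 (3.29 CPM), and low for Sox4 (11 CPM). ESC Host 2 was high for Zfp57 (829 CPM), H19 (18.6 CPM) and Cldn7 (5.44 CPM).

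Ccbe1 differed between the conversions, with a Host minus DKO difference of 4.37 log2 units (adjusted p = 0.00486 in edgeR's quasi-likelihood test). The difference was not called under the line block, with the compared groups alone or without EpiLC Host 4.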

How the results depend on the processing

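The main comparison called 7206 genes, and between 5121 and 7474 genes under the other scaling, filters, DESeq2, the smaller fit, the parent lines alone, removal of Rn45s and an adjusted p under 0.01. With the line as a replicate block, 6749 genes were called, 5792 of them shared; the counts per list that the block or a left-out library moved by over 1.5 times stand beside those lists. A test against a 2-fold change (glmTreat) called 2963 genes in Host lines and 3086 in DKO lines; that threshold asks more of each gene. Leaving out 1 library gave 4901 to 7189 genes in Host lines and 6346 to 7185 in DKO lines. The Host minus DKO difference was called for 6 genes by DESeq2, 0 with the compared groups alone (449 at an unadjusted p under 0.05), 0 under the replicate block (461), and 0 (without EpiLC Host 4, 395) to 3 (without ESC Host 4) when a library was left out. The cause was not tested.

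Of 205 called genes named by the rule, 50 lost the call under some alternative and 0 changed sign. The log2 fold changes that changed sign were all of genes not called in the main comparison. Under the replicate block they were -0.17 for Eif2s3y, -0.030 for Dppa4, 0.0094 for Rif1, 0.067 for Fst, -0.55 for Rn45s and -0.93 for EGFP. With the parent lines alone they were -0.071 for Eif2s3y, -0.031 for Dppa4, 0.055 for Fst, -0.65 for Rn45s and -0.84 for EGFP. When 1 library was left out they ran between -8.59 (without EpiLC Host 4) and 9.62 (without ESC Host 4) for Eif2s3y and between -8.18 and 9.62 without the same libraries for Ddx3y. They ran between -0.54 (without ESC Host 2) and 0.0017 (without ESC Host 1) for Dppa2, -0.13 (without ESC Host 1) and 1.25 (without ESC Host 4) for Rn45s, -1.57 (without EpiLC Host 3) and 4.78 (without ESC Host 4) for EGFP, and -1.65 (without EpiLC Host 3) and 0.068 (without EpiLC Host 4) for Xist. EGFP was near the floor, at 0.241 and 0.0356 CPM in EpiLC Host 3 and 4, 0.649 CPM in ESC Host 4 and 0 CPM in ESC Host 1 to 3. Without ESC Host 4 it was called higher. With 2 EpiLC libraries, small changes were often not detectable.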

Other observations

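The gene families here were chosen after their values were seen, and their counts stand against 22.4% higher and 21.7% lower over all tested genes. Of 81 cytosolic ribosomal protein genes, 0 were higher and 3 lower by edgeR's quasi-likelihood test (median log2 fold change -0.48), and of 93 nuclear genes of the respiratory chain, 3 were higher and 31 lower (median -0.46), against a median of -0.03 over all tested genes. Of 19 apolipoprotein genes tested, 0 were higher and 10 lower (median -1.36). Of 377 genes named Zfp, for zinc finger proteins, 50 were higher and 122 lower (median -0.26).

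Several families had more genes higher than lower. Of 11 Frizzled genes, the receptors for Wnt ligands, 8 were higher and 2 lower (median 1.51). Of 16 genes of the Notch receptors, their ligands and the Hes and Hey targets, 9 were higher and 3 lower (median 1.77). Of 37 collagens, 18 were higher and 3 lower (median 1.32), and of 33 protocadherins, 12 were higher and 0 lower (median 0.87). Of 5 Iroquois genes, 4 were higher. Forkhead genes were divided, with 20 of 39 higher and 8 lower, and Klf genes also, with 5 of 17 higher and 9 lower.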
